A study of Homo sapiens with 44 samples.

Results

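Chromatin accessibility was compared directly between Ccd18-Co fibroblasts stimulated with oncostatin M (OSM) and the same cells stimulated with IL-22, using the 4 OSM and the 4 IL22 libraries of 44 libraries in the study. The libraries were chosen by the cytokine named in the sample labels, and all peaks of the shared table entered the analysis. Ccd18-Co is an established line of human colon fibroblasts. The study profiled it by ATAC-seq, which marks DNA open enough for the Tn5 transposase to cut, in 11 groups of 4 libraries: unstimulated cells and cells given IL1B, IL6, IL13, IL17A, IL22, IFNA, IFNG, TGFB1, TNF or OSM. OSM and IL-22 were given at 10 ng/ml in serum-free medium, as were the other cytokines except IL1B, whose dose was lower. No group carried a genetic change, and all cells came from this single line. The groups thus model cultured fibroblasts of 1 origin without the other cells of the gut. The labels do not state whether the 4 libraries of a group came from separate cultures, so p-values measure the spread between these libraries, which may be technical.

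OSM and IL-22 are both cytokines whose receptors signal through Janus kinases to the transcription factor STAT3. OSM belongs to the IL-6 family and binds gp130 (encoded by IL6ST) together with the OSM receptor or the LIF receptor, both of which are found on fibroblasts and other stromal cells. IL-22 belongs to the IL-10 family and binds IL22RA1 with IL10RB, and in the gut it is known mainly for acting on epithelial cells, where it induces antimicrobial and mucus genes. The comparison asks where open chromatin differed between fibroblasts given the one and fibroblasts given the other.

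Of 407176 peaks tested, 4067 (0.999% of all tested) had more coverage with OSM and 2705 (0.664%) had less, 6772 (1.66%) in all. The test was limma with Benjamini-Hochberg adjustment, at an adjusted p below 0.05. Before adjustment, 43143 peaks had a p below 0.05. Each peak is 500 bases wide, and its level is given as coverage per Mb, the bases of sequence falling on the peak for each Mb of sequence on all peaks of the library. Differences are on the scale log2(coverage per Mb + 0.5). Peaks higher with OSM had a median level of 10.1 per Mb with OSM, 4.77 with IL-22 and 5.01 in unstimulated cells, a median difference of 1.00. Peaks lower with OSM had 2.61, 6.04 and 5.74 per Mb, a median difference of -1.07. The median level in unstimulated cells was thus close to that with IL-22 in both sets, a description only, since the OSM and IL22 libraries themselves chose the sets.

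A difference of at least 1 was seen in 2031 higher and 1552 lower peaks, and of at least 2 in 60 and 22. Of the 6772 called peaks, 6196 had no overlap between the 4 OSM and the 4 IL22 libraries, against 7.84% of all tested peaks (3.25% with OSM wholly above, 4.59% wholly below). The balance of directions depended on the processing: 60.1% of called peaks were higher with OSM, and 82.6% after a correction by peak GC content. That correction subtracted each library's median deviation within bins of GC content. It also moved the median difference over all tested peaks from -0.11 to 0.02. The parts of GC content and of this general shift in the 82.6% were not tested. The corrected fit called 8805 peaks (2.16%), of which 7271 (1.79%) were higher and 1534 (0.377%) lower. Leaving out OSM replicate 2 lowered the number of peaks higher with OSM to 2666.

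**Figure D1:**
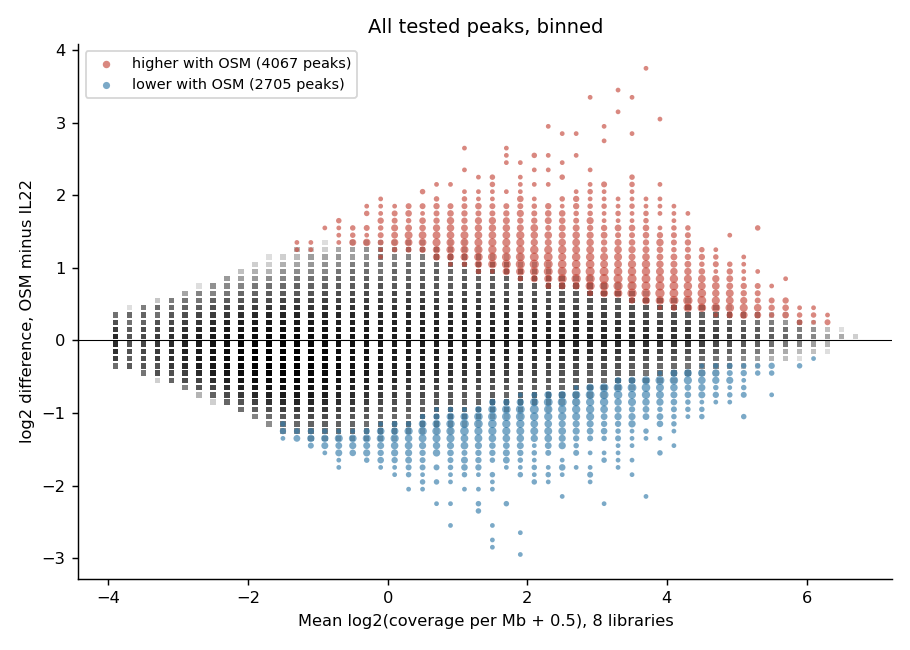
Difference between OSM and IL-22 (vertical axis, log2) against mean level over the 8 libraries (horizontal axis, log2) for all tested peaks, counted in small bins, with grey squares for peaks not called (darker for more peaks) and coloured points for called peaks (larger for more peaks). The 4067 peaks higher with OSM reach 3.75 and the 2705 lower peaks reach -2.92, and the smaller called differences lie among the more covered peaks.

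The 4 sequences that follow show the central 300 bases of peaks on which the results turn, on the plus strand of hg38, with capitals marking 3 strings searched on both strands: the STAT string TTCNNNGAA, the AP-1 string TGANTCA and the RUNX string TGTGGTT. STAT proteins, AP-1 (dimers of FOS and JUN proteins) and RUNX proteins are known to bind sites of these forms. The SOCS3 peak had the largest difference and holds none of the 3 strings. IL7R and SUPT3H are raised peaks with strings, and PPP1R3C is a strongly lowered peak with none.
SOCS3, chr17:78354998-78355297: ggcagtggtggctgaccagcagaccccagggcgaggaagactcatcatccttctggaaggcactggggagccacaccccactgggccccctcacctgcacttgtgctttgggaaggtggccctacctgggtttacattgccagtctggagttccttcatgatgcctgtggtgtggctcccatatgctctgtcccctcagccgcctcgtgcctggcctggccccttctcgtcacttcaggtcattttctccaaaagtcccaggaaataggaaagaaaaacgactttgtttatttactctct
IL7R, chr5:35784404-35784703: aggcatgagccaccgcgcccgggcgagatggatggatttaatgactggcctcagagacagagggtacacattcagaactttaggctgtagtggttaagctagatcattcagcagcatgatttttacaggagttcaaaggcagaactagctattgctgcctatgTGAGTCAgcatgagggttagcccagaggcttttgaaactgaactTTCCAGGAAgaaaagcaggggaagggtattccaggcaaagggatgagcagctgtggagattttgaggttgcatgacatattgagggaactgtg
SUPT3H, chr6:45543539-45543838: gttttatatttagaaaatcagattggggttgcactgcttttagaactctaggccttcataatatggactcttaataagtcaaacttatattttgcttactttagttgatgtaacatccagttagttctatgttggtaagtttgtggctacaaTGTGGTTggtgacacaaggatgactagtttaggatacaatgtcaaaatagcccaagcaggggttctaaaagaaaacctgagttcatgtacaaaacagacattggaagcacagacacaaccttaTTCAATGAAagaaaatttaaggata
PPP1R3C, chr10:91589314-91589613: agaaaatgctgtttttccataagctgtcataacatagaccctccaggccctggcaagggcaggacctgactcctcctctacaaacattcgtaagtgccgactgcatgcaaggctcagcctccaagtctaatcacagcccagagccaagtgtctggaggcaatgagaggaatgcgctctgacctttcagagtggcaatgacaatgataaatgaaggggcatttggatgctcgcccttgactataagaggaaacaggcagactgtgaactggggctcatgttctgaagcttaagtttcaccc

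Of these 4 windows, 2 held a STAT string, 1 of them with an AP-1 string (IL7R) and 1 with a RUNX string (SUPT3H). Among all tested peaks 17.2% held the STAT string, 25.7% the AP-1 string and 10.9% the RUNX string. A match is a description of letters, not of a bound site, and its absence says nothing about the factor.

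The largest difference lay near SOCS3, which encodes a feedback inhibitor of gp130 and Janus kinase signalling that is itself a STAT3 target. Coverage of the SOCS3 peak at chr17:78354898-78355397, between genes and 4.93 kb downstream of the start site, was 26.0, 27.2, 19.7 and 21.5 per Mb with OSM. The 4 IL22 libraries had 2.31, 0.826, 1.34 and 0.954 per Mb, and unstimulated cells averaged 1.80 ± 0.495 (SD, n = 4). Every OSM library was far above every IL22 library, and of the IL22 libraries 2 lay within the range of the unstimulated ones and 2 below it. The difference was 3.75 ± 0.32 (SE), a ratio of means of 17.4, with an adjusted p of 1.46e-21 by limma.

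The difference ran over a stretch of neighbouring peaks rather than a single site. Of 48 tested peaks listed under SOCS3, 14 were higher with OSM and 0 lower by limma, against the backgrounds of 0.999% and 0.664%. At an unadjusted p below 0.05 the counts were 19 and 0, beside 43143 of all 407176 tested peaks in either direction. Between 3.53 and 5.63 kb downstream of the start site, 4 consecutive peaks had differences of 2.24, 3.07, 3.75 and 3.35, with means of 14.8 to 26.4 per Mb with OSM and 1.02 to 3.65 with IL-22. The peak second in size averaged 14.8 ± 0.882 with OSM and 1.02 ± 0.285 with IL-22. The most covered peak of the locus, 8.35 kb downstream, was already open with IL-22 (43.2 ± 2.72 per Mb) and rose to 62.0 ± 3.07 with OSM, a difference of 0.52 ± 0.09 (adjusted p = 1.89e-05, limma).

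At the peak nearest to the SOCS3 start site the difference was small. Coverage of this promoter-class peak was 26.7, 34.8, 36.1 and 28.0 per Mb with OSM and 23.3, 25.5, 21.5 and 19.0 with IL-22. The 2 groups did not overlap but came close, and the difference of 0.48 ± 0.14 had an adjusted p of 0.0388 by limma. This call was lost under 7 of the alternatives, with an adjusted p of up to 0.228, and so was that of the peak 17.5 kb downstream (0.61 ± 0.17, adjusted p = 0.0264, limma) under 8, with up to 0.119. The other promoter-class peaks under SOCS3 had larger differences. They were 1.14 ± 0.19 (adjusted p = 6.35e-06, limma) at 0.54 kb downstream and 1.12 ± 0.24 (adjusted p = 0.00105, limma) at 1.10 kb. Neither call was lost under any alternative. Peaks under the neighbouring gene PGS1, which encodes an enzyme of cardiolipin synthesis, were also higher with OSM, 10 of 55 tested.

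**Figure D2:**
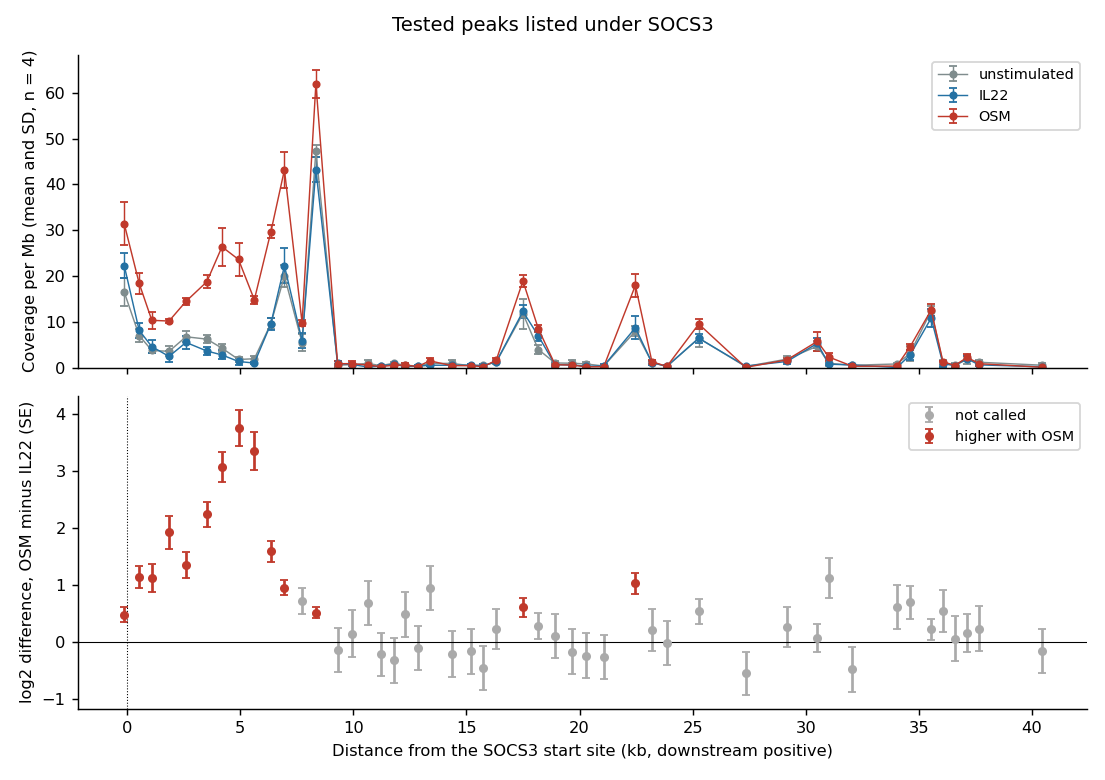
Tested peaks listed under SOCS3 by distance from the start site (kb, horizontal axis), with mean coverage per Mb and SD over 4 libraries of each group (upper panel) and the log2 difference between OSM and IL-22 with its SE (lower panel). Unstimulated and IL22 means run together over most of the locus, and the 14 peaks called higher with OSM lie from -0.12 to 22.47 kb, with the largest differences near 5 kb.

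The other 9 of the 10 named peaks higher with OSM were not of the deposited promoter class, although that of NAMPT lies 329 bases from an annotated start site. In an intron of ERCC1, a DNA repair gene, coverage at chr19:45476214-45476713 was 18.8, 20.7, 16.9 and 18.2 per Mb with OSM. With IL-22 it was 0.981, 1.50, 1.02 and 1.82. The groups were far apart, with a difference of 3.41 ± 0.30 (adjusted p = 4.27e-20, limma), and the IL22 mean of 1.33 was below the unstimulated mean of 3.18. Within 50 kb lie the start sites of 5 protein-coding genes, among them FOSB, an AP-1 subunit, at 8.5 kb.

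For the peak listed under CXCL17, which encodes a mucosal chemokine, coverage was 9.27, 8.27, 8.65 and 10.3 per Mb with OSM and 1.67, 0.910, 0.966 and 0 with IL-22, a difference of 2.97 ± 0.36. The peak listed under IL7R, the IL-7 receptor alpha chain, lies in an intron of SPEF2 at chr5:35784304-35784803 and had 9.49, 10.4, 10.8 and 9.61 per Mb against 0.331, 2.05, 0.894 and 1.26, a difference of 2.81 ± 0.34. In both, the lowest OSM library was several times the highest IL22 library. The peak listed under SUPT3H lies in an intron of RUNX2, a transcription factor of bone and stromal cells, at chr6:45543439-45543938. Its coverage was 5.36, 8.33, 10.9 and 8.16 per Mb with OSM and 1.16, 0.887, 1.22 and 0.513 with IL-22, so that the groups were apart although the OSM libraries were uneven.

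The remaining 5 peaks had differences of 2.59 to 3.13. For the peak listed under ABRA, which encodes an actin-binding protein and has the nearest protein-coding start site, 334806 bases away, the OSM libraries ranged from 15.2 to 22.6 per Mb and the IL22 libraries from 0 to 4.91. The peak listed under MIR101-2, a microRNA gene, had 9.97 to 14.3 against 0.497 to 2.34, and its nearest protein-coding start site, 79342 bases away, is that of JAK2. HORMAD2-AS1 had 5.44 to 6.77 against 0.331 to 1.22, and LINC01648 had 5.28 to 7.14 against 0 to 1.19. For NAMPT, the enzyme that limits NAD salvage, coverage was 3.59, 4.22, 3.37 and 4.33 per Mb with OSM and 0.448, 0, 0.599 and 0 with IL-22. Since 1 read is worth about 0.185 per Mb in the IL22 libraries, all 4 were at or under the floor of 3 reads, and the peak was at least 6.99-fold higher with OSM.

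The 10 named peaks lower with OSM were nearly closed in the OSM libraries. Within CLTCL1, coverage of the peak listed under SLC25A1, the mitochondrial citrate carrier, was 0.915, 0, 0.704 and 0.739 per Mb with OSM at chr22:19191412-19191911. The IL22 libraries had 4.82, 7.31, 8.82 and 8.37, and unstimulated cells averaged 3.21 ± 0.626. The IL22 libraries were thus all above the OSM and the unstimulated ones, and the difference was -2.92 ± 0.27 (adjusted p = 8.04e-19, limma). In an intron of MAP3K1, a kinase upstream of the JNK and ERK pathways, coverage at chr5:56860857-56861356 was 0.351, 0.116, 0.185 and 0.467 per Mb against 4.62, 4.51, 5.01 and 7.12, with an unstimulated mean of 2.74. A value of 0.116 is less than 1 read's mean worth of 0.137 per Mb in the OSM libraries, so levels this low rest on single reads.

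The peaks named MIR5739 (in an intron of TTC28), PDK1 (pyruvate dehydrogenase kinase), XPNPEP1 (an aminopeptidase), KCNU1 (a potassium channel), RASGRP3 (an activator of Ras), PPIF (cyclophilin D of mitochondria), DEC1 and LOXL1 (an elastin cross-linking enzyme) had differences of -2.71 to -2.28. Their means were 0.204 to 0.597 per Mb with OSM and 3.18 to 6.43 with IL-22. None overlapped between the groups, as the naming rule required, and the DEC1 peak, where all OSM libraries were at or under the floor, was at least 7.74-fold lower. All 20 named peaks remained called in the same direction under every alternative run, the highest adjusted p being 2.94e-05.

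**Figure D3:**
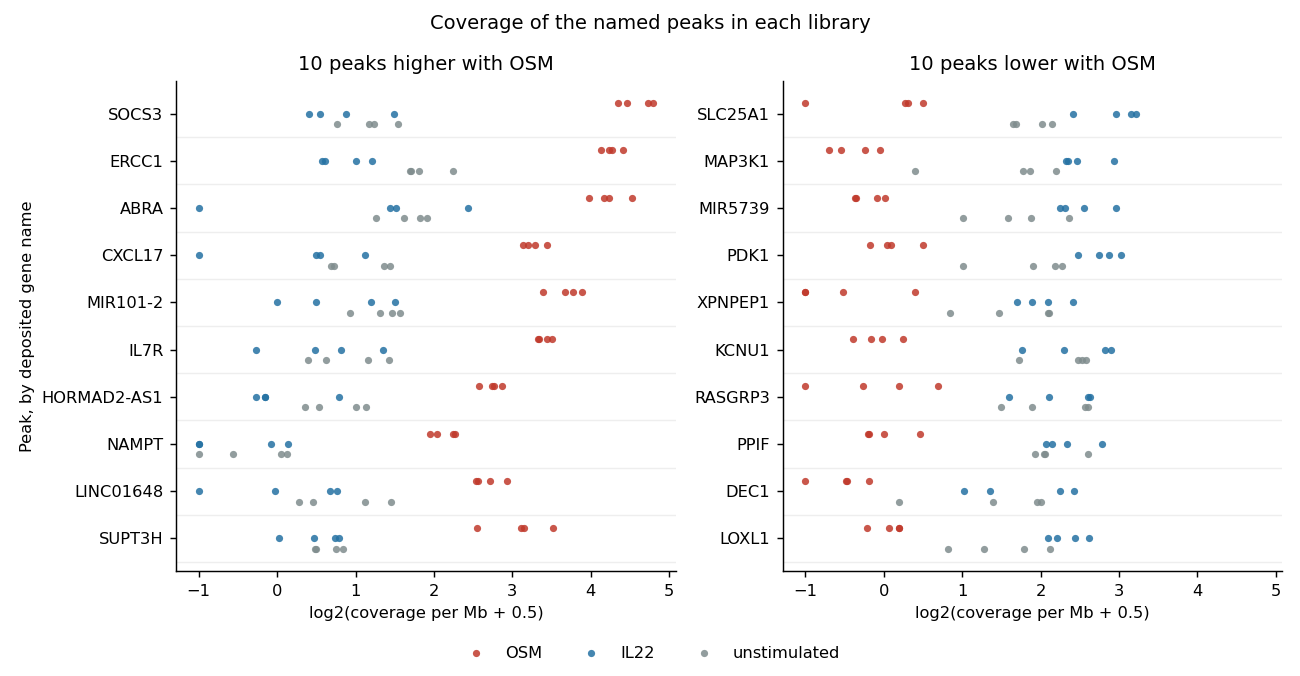
Level of the 10 named peaks higher and the 10 lower with OSM in each of the 4 OSM, 4 IL22 and 4 unstimulated libraries, each point a library (horizontal axis, log2 of coverage per Mb + 0.5). OSM points stand to the right of IL22 points in the left panel and to the left in the right panel. The ranges of unstimulated and IL22 points overlap except at ERCC1, where the unstimulated points are higher, and at SLC25A1, MAP3K1 and PDK1, where they are lower.

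Each cytokine can also be set beside unstimulated cells. These values use the same OSM and IL22 libraries as the comparison above and the same unstimulated libraries as each other, so they are given as descriptions. At the 10 higher peaks OSM minus unstimulated was 1.86 to 3.40 and IL-22 minus unstimulated was -1.01 to -0.14. At the 10 lower peaks the values were -2.41 to -1.44 for OSM and 0.10 to 1.06 for IL-22. The lower peaks thus split: for SLC25A1, MAP3K1, PDK1, LOXL1 and MIR5739, IL-22 minus unstimulated was 0.81 to 1.06, and for the other 5 it was 0.10 to 0.40.

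The order of all 11 group means at these peaks was also uneven. OSM had the highest mean at 10 of 10 higher peaks and the lowest at 10 of 10 lower peaks. The rule named these peaks for their large differences between OSM and IL-22, which favours an extreme OSM mean. The ratio of the OSM mean to the next highest group ran from 7.13 at SOCS3, where IL17A followed with 3.31 per Mb, down to 1.16 at CXCL17, where IFNG had 7.84. At 6 of the 10 lower peaks (SLC25A1, MAP3K1, MIR5739, PDK1, XPNPEP1 and LOXL1) the order was the same at both ends: TNF highest, IL17A next, TGFB1 next to lowest and OSM lowest. At SLC25A1, for example, these means were 12.1, 8.77, 2.63 and 0.589 per Mb. These 6 peaks lie on 5 chromosomes and are listed under different genes, and the other 4 lower peaks had their highest mean with IL17A, TGFB1 or IL-22. The order was noticed after the values were seen and carries no test.

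Several gene names had many called peaks. THBS1, which encodes the matrix glycoprotein thrombospondin 1, had 29 of 132 tested peaks higher with OSM and 0 lower. Its named peak in a THBS1 exon, at chr15:39597342-39597841, had 19.2, 19.4, 18.2 and 15.8 per Mb with OSM and 3.77, 2.40, 3.95 and 3.33 with IL-22, a difference of 2.29 ± 0.26. NAMPT had 24 of 127 higher, MIR21, a microRNA gene whose named peak lies in an intron of VMP1, 12 of 65, and NNMT, which methylates nicotinamide, 11 of 157 with 1 lower. Under ADAMTSL4-AS1 it was 11 of 21, and the named peak of these lies in the neighbouring gene MCL1, an inhibitor of apoptosis. These counts exceeded the background of 0.999%, and they follow from the rule, which took the 10 names with the most called peaks.

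FOS, PPP1R15A and NFKBIZ completed the 10 names with the most higher peaks. For FOS, an AP-1 subunit, 10 of 41 peaks were higher, the named one having 2.67, 4.16, 3.28 and 2.66 per Mb against 0.144, 1.04, 1.12 and 1.69, with its call lost under 3 alternatives (adjusted p up to 0.201). PPP1R15A, which helps to dephosphorylate eIF2 alpha after stress, had 9 of 20 higher and a named peak of 9.64, 10.6, 8.21 and 7.62 per Mb against 2.51, 3.37, 2.54 and 1.28. NFKBIZ, which encodes a nuclear regulator of NF-kappa-B, had 9 of 59 higher and a named peak 34961 bases from its start site with 11.1, 10.9, 7.72 and 6.70 against 0.326, 3.29, 0.929 and 2.69. In these 3 peaks too the OSM libraries lay wholly above the IL22 libraries.

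On the lower side PPP1R3C, which targets a phosphatase to glycogen, had 12 of 66 peaks lower and 0 higher. Coverage of its named peak at chr10:91589214-91589713, 43607 bases from the start site, was 3.18, 3.44, 2.28 and 2.39 per Mb with OSM and 15.0, 13.4, 14.8 and 16.8 with IL-22. Unstimulated cells averaged 15.4, close to IL-22, and the difference was -2.23 ± 0.16 (adjusted p = 3.97e-28, limma). ZFP36L1, which encodes an RNA-decay factor, had 8 of 309 lower, its named peak in an intron of RAD51B having 10.4, 7.63, 7.21 and 8.06 per Mb against 21.0, 27.2, 24.4 and 23.9. KCNU1 had 12 of 96 lower and 1 higher, DEC1 8 of 96 and 1, DIRC3-AS1 8 of 115 and 2, and FBXL18, an F-box protein gene, 5 of 40 and 2. These names too follow from the rule, and their lower counts stand beside a background of 0.664%.

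The other 4 lower names had 6 or 7 lower peaks each. SERPINE2, a protease inhibitor, had 7 of 64 peaks lower and 1 higher, ADAMTS5, an aggrecan-cleaving protease, 6 of 64 and 0, TIMP3, an inhibitor of metalloproteinases, 6 of 159 and 1, and CNTN4-AS1 6 of 59 and 0. The named peaks of ADAMTS5 (-1.34 ± 0.33), TIMP3 (-1.49 ± 0.37) and CNTN4-AS1 (-1.63 ± 0.39) had mean levels of 0.282 to 0.763 per Mb with OSM, and each lost its call when single replicates were left out, with adjusted p of up to 0.0707. Over 23383 gene names with a tested peak, 4367 had a called peak: 2321 had higher peaks alone, 1468 lower peaks alone and 578 both.

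No receptor or kinase gene passed the test at its start site. For each gene the tested peak nearest to an annotated start site within 1 kb was used. By limma 0 of 14 such peaks were called (2 had an unadjusted p below 0.05), beside 1.14% of all start-site peaks. With so few peaks, a count of 0 does not set these genes apart from that share. Their median difference was 0.12, beside -0.11 over all tested peaks and -0.03 over all start-site peaks. Coverage of the OSMR promoter was 28.7, 37.3, 36.0 and 27.2 per Mb with OSM and 29.7, 28.3, 30.7 and 30.6 with IL-22 (0.10 ± 0.11, adjusted p = 0.8291, limma). Of tested peaks listed under OSMR, 0 of 27 were called (5 had an unadjusted p below 0.05), beside 1.66% of all tested peaks. An unadjusted p below 0.05 was seen at 43143 of all 407176 tested peaks. At the start site of IL22RA1, the IL-22 receptor chain, levels were 1.80 to 4.27 per Mb with OSM and 2.17 to 4.00 with IL-22. Unstimulated cells averaged 3.44, and the medians over all start-site peaks were 1.80 with OSM and 1.81 with IL-22. IL10RB, the partner of IL22RA1, had 4.63 to 7.31 and 3.30 to 4.99.

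For IL6ST the start-site peak had 36.4, 35.8, 40.1 and 36.3 per Mb with OSM and 34.0, 27.7, 29.1 and 30.8 with IL-22. The groups did not overlap, as in 3.25% of all tested peaks in this direction, but the difference of 0.29 ± 0.11 did not pass the test over all 44 libraries (adjusted p = 0.233, limma). When only the 8 libraries entered the fit the adjusted p was 0.0213. The start-site differences of the kinases JAK1, JAK2 and TYK2 were -0.34 ± 0.17, 0.13 ± 0.10 and -0.01 ± 0.38, and those of LIFR, IL6R, IL11RA, IL22RA2, IL10RA, IL20RA and IL20RB were -0.19 to 0.35, none of them called. Of all 346 tested peaks listed under these 14 genes, start-site peaks included, 3 (0.867%) were higher (1 each under IL6R, IL22RA2 and JAK2) and 1 (0.289%), under IL6R, was lower. The backgrounds were 0.999% and 0.664%, and counts this small do not tell the genes apart from them.

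Of 24 STAT3 feedback and target genes, 2 had a start-site peak higher with OSM and 0 had a lower one by limma. Of all 79321 start-site peaks, 628 were higher and 273 lower. The median difference of the list was 0.12. At an unadjusted p below 0.05 its counts were 3 and 0, beside 43143 of all 407176 tested peaks. The 2 genes were SOCS3, whose call was lost under 7 of the alternatives, and ZFP36. ZFP36 encodes tristetraprolin, an RNA-decay factor induced by many cytokines. Its start-site peak had 16.1, 17.5, 16.8 and 17.1 per Mb with OSM and 8.59, 7.94, 6.83 and 6.54 with IL-22. The OSM libraries were close together and all well above the IL22 libraries, beside an unstimulated mean of 8.58, and the difference was 1.13 ± 0.20 (adjusted p = 1.56e-05, limma). The start-site peaks of FOS (0.41 ± 0.14, adjusted p = 0.151, limma), JUNB (0.17 ± 0.11, adjusted p = 0.643, limma) and CISH (0.29 ± 0.19, adjusted p = 0.63, limma) were not called. Their groups did not overlap, as in 3.25% of all tested peaks in this direction. When only the 8 libraries entered the fit, FOS was called (adjusted p = 0.0106, limma). SOCS1, BCL3, PIM1, MYC and CEBPD, all known STAT3 targets, had -0.08, 0.26, 0.11, 0.15 and 0.05.

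Over all 983 tested peaks listed under the 24 genes, 38 (3.87%) were higher and 7 (0.712%) lower, against 0.999% and 0.664% of all tested. SOCS3 and FOS supplied 24 of the 38, and the others lay under 8 more genes. PTPN2, a phosphatase that acts on Janus kinases, and VEGFA, an angiogenic factor, had 2 higher each, with differences of up to 2.14 and 1.43, and STAT3 itself had 1 of 42, with 1.88. KLF4 had 2 higher and 4 lower of 217.

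The single start-site peak called lower in any list was that of COL1A1, which stands among the matrix and contractile genes and among the fibroblast markers. Coverage of the COL1A1 start-site peak, for the alpha-1 chain of type I collagen, was 4.73, 4.94, 3.26 and 5.10 per Mb with OSM and 7.81, 8.17, 10.5 and 11.7 with IL-22, with 9.13 on average in unstimulated cells. The groups did not overlap and the difference was -1.004 ± 0.21 (adjusted p = 0.000767, limma). It was the single called gene of 24 matrix and contractile genes, whose median was -0.11. Of all 79321 start-site peaks, 273 were called lower. ACTA2, smooth muscle actin, had -0.48 (adjusted p = 0.0554, limma) and was called under 5 of the alternatives. COL1A2 had 0.60 and COL3A1 -0.15, neither of them called, so the collagen genes had unlike values. Of 962 tested peaks listed under the matrix and contractile genes 10 (1.04%) were higher and 17 (1.77%) lower. The shares over all tested peaks were 0.999% and 0.664%. The lower ones included 6 under TIMP3, 3 under COL6A3 and 2 each under COL3A1 and TNC.

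No start-site peak was called among 15 measured acute phase and complement genes, 24 stromal cytokine, chemokine and adhesion genes, 19 measured interferon-response genes or 10 measured genes known as IL-22 targets of epithelium, while 1.14% of all start-site peaks were called by limma. At an unadjusted p below 0.05 there were 5, 7, 2 and 2, beside 43143 of all 407176 tested peaks. The median differences of these lists were -0.15, 0.10, -0.06 and -0.27. The epithelial IL-22 targets had a median level of 0.324 per Mb with OSM, under the mean floor of 0.411, and 1.10 with IL-22. Their summed levels overlapped, at 9.16 to 13.3 per Mb with OSM and 9.32 to 15.2 with IL-22. Over all tested peaks the median level was also lower with OSM, 0.532 against 0.699. The acute phase gene SAA2 had 0.154 and 1.11 (adjusted p = 0.0683, limma). Beside SAA2, the complement gene C1R (0.41, adjusted p = 0.0871, limma) and the gp130 cytokine IL11 (-0.68, adjusted p = 0.0638, limma) are named after their values were seen. In the same direction, SAA2 was called under 3 of the alternatives, C1R under 4 and IL11 under 6, among them leaving out OSM replicate 4 (SAA2, adjusted p = 0.0368), IL22 replicate 1 (C1R, 0.0267) and IL22 replicate 3 (IL11, 0.0453). The stromal list holds PDPN and THY1, which the study had examined in cells given OSM, so its choice was not independent of this treatment. Of all 689 tested peaks listed under the stromal genes, start-site peaks included, 19 (2.76%) were higher and 9 (1.31%) lower. The shares over all tested peaks were 0.999% and 0.664%. Of the higher ones, 4 lay under the neutrophil chemokine CXCL1, 3 under THY1 and 2 each under PDPN, CXCL12 and IL1R1.

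**Figure D4:**
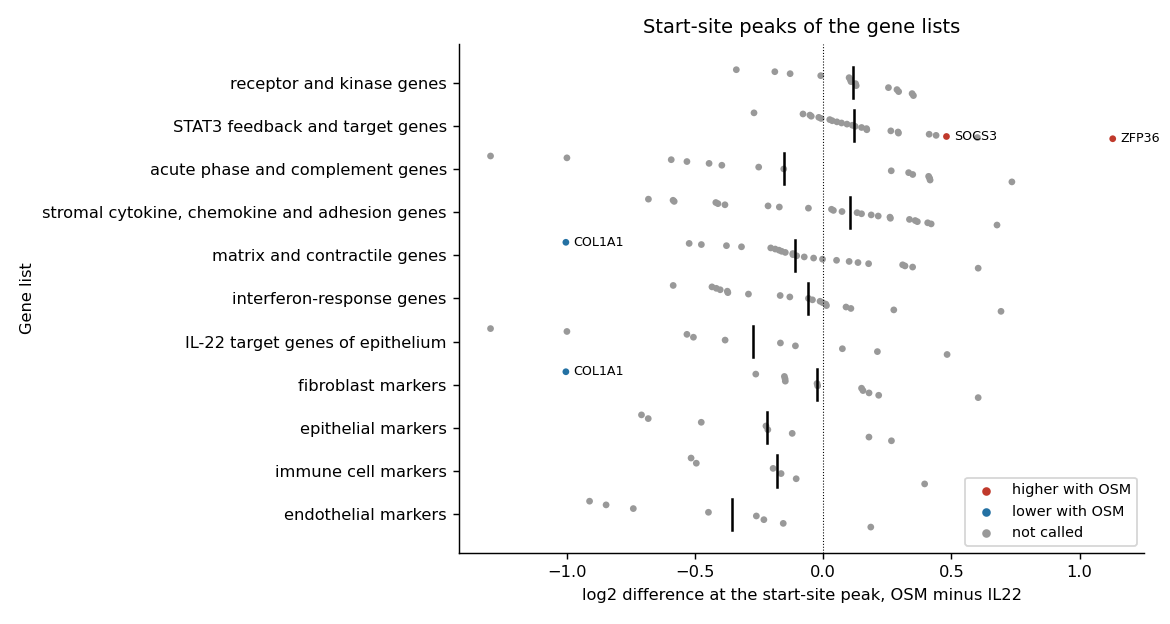
Log2 difference between OSM and IL-22 at the start-site peak of each gene (horizontal axis) for the 11 gene lists (vertical axis), each point a gene and each black bar the median of its list. SOCS3 and ZFP36 are called higher, COL1A1, which stands in 2 lists, is called lower, and every other gene is not called.

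The labelled cell type was checked at the start sites of marker genes. The 12 fibroblast markers had a median of 4.50 per Mb with OSM and 5.67 with IL-22, beside 1.80 and 1.81 over all start-site peaks. Of 12 epithelial markers 8 had a tested peak, with medians of 0.771 and 1.14, and endothelial markers had 0.314 and 0.615 (8 of 8). Of 10 immune markers 6 were measured, with medians of 1.61 and 2.07, although the start site of PTPRC, the leukocyte antigen CD45, had 9.26 and 6.86. The summed level of the endothelial markers was 2.52 to 3.92 per Mb with OSM and 4.39 to 7.38 with IL-22, without overlap. The endothelial medians lie near the mean floors of 3 reads, 0.411 with OSM and 0.555 with IL-22. Over all tested peaks the median level was also lower with OSM, 0.532 against 0.699. The sums of the fibroblast markers (57.3 to 63.3 against 62.6 to 67.5), the epithelial markers (9.53 to 12.4 against 10.7 to 15.6) and the immune markers (14.7 to 21.1 against 14.1 to 18.6) overlapped. Accessibility is not expression, and the part of these levels in the differences above was not tested.

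Called peaks lay mostly away from promoters. Promoter-class peaks made up 4.18% of the higher and 2.77% of the lower set, beside 7.15% of all tested peaks and 13.5% of those with at least 1 per Mb over the 8 libraries. Intronic peaks made up 50.9% and 53.0% (51.7% of all), distal peaks 37.8% and 40.4% (34.5%), and exonic peaks 7.08% and 3.84% (6.71%). Mean GC content was 44.7% in the higher, 45.0% in the lower and 46.7% in all tested peaks.

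The strings shared by the higher peaks were not used by the rule. The RUNX string was in 26.5% of higher peaks, 9.72% of lower peaks and 10.9% of all tested. The STAT string was in 25.2%, 14.9% and 17.2%, and the AP-1 string in 46.2%, 27.2% and 25.7%. The higher set thus held each of the 3 more often than all tested peaks did, while the lower set was close to or below the background. Of tested peaks with at least 1 per Mb, 10.8% held the RUNX, 15.8% the STAT and 30.5% the AP-1 string. The higher set was above and the lower set below each of these shares. After the GC correction the shares were 23.7% and 10.1% for RUNX, 23.5% and 15.1% for STAT, and 47.4% and 22.8% for AP-1 in the higher and lower sets.

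The GC box GGGCGG, a string of promoters, was less frequent in both sets, at 9.66% of higher and 9.61% of lower beside 16.0% of all tested peaks. The C/EBP string TTNCGNAA was in 4.06% of higher, 2.55% of lower and 3.03% of all tested peaks, and the TEAD string GGAATG in 34.4%, 35.3% and 28.7%. The NF-kappa-B string was in 3.07%, 3.25% and 3.70%, and the interferon-response string (ISRE) in 8.85%, 7.25% and 9.11%. Among tested peaks with at least 1 per Mb the shares were 25.1% (GC box), 3.47% (C/EBP), 29.6% (TEAD), 2.93% (NF-kappa-B) and 7.86% (ISRE). Both sets thus lay below all tested peaks but above these more covered peaks for NF-kappa-B, as did the higher set for ISRE. All were searched on both strands over the whole peak, and strings may overlap one another.

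The share of peaks called higher was larger with each string added to a combination, but did not follow the number of strings alone. It was larger with RUNX alone than with STAT and AP-1 together. Among peaks with at least 1 per Mb, 1.42% of the 81281 without any of the 3 strings were higher with OSM, and 2.98% with the STAT string alone, 3.07% with AP-1 alone and 5.02% with RUNX alone. With a pair of strings it was 4.81% (STAT and AP-1), 7.21% (STAT and RUNX) and 7.86% (AP-1 and RUNX), and of the 1105 peaks with all 3, 120 (10.9%) were higher. The share called lower was 1.70% without any string and 1.09% with all 3. These shares are descriptions, since peaks that hold more strings may differ in level and GC content, whose part was not tested.

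**Figure D5:**
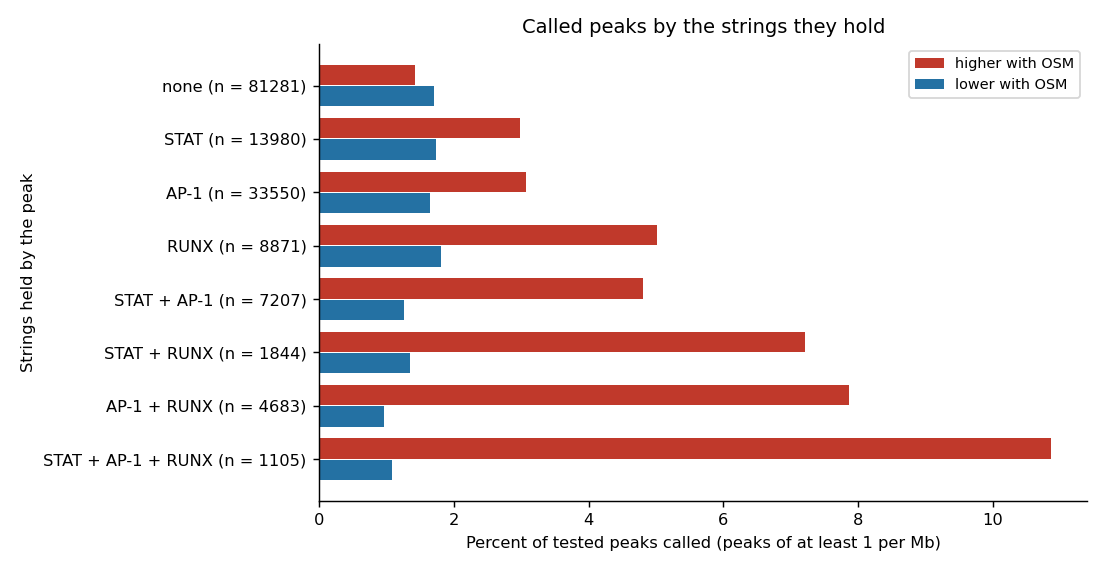
Percent of tested peaks called higher or lower with OSM (horizontal axis, from 0) by the combination of STAT, AP-1 and RUNX strings in the peak, among peaks with at least 1 per Mb, with the number of peaks in each combination. The bars for higher peaks run from 1.42% without a string to 10.9% with all 3, with RUNX alone above STAT and AP-1 together. Those for lower peaks stay between 0.961% and 1.81%.

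The same peaks were followed in the 8 other cytokine groups, which share no library with the comparison but share the unstimulated libraries with one another. Over the peaks higher with OSM the median change against unstimulated cells was 0.20 with TNF, 0.20 with TGFB1, 0.12 with IL1B, 0.09 with IFNG, 0.05 with IFNA, 0.05 with IL17A, 0.02 with IL6 and 0.00 with IL13. Over all tested peaks these medians were -0.04, 0.15, 0.03, -0.01, 0.01, -0.02, -0.05 and -0.05. Over the peaks lower with OSM they were -0.30, -0.36, -0.37, -0.08, -0.18, -0.02, -0.12 and -0.11. All 8 values over the higher peaks lay above those over the lower peaks. IL6, the other gp130 cytokine, had 0.06 and -0.08 without the library labelled IL6 replicate 4, and both were small beside the median of 1.00 between OSM and IL-22.

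The libraries were also compared by depth and composition. Total coverage on peaks was 427 to 667 Mb with OSM and 305 to 567 Mb with IL-22, and 13.8 ± 3.29% and 11.3 ± 4.17% of peaks had no coverage. Correlations between libraries, across peaks, were 0.914 to 0.935 within OSM, 0.852 to 0.901 within IL22 and 0.858 to 0.909 between them. Of 5 measures compared by a two-sided exact permutation test (n = 4 per group, 70 arrangements, smallest possible p = 0.0286), the lowest p was 0.0571, for the share of coverage in the 1% of peaks with the most coverage (15.6% with OSM, 14.8% with IL-22), and the adjusted p were 0.214 to 0.457. With so few libraries, a measure could pass after adjustment over 5 only if others also reached the smallest p, so these tests do not show that the groups were alike.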

How the data were processed

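The authors prepared paired-end Omni-ATAC libraries, processed them with the ENCODE ATAC-seq pipeline on hg38 with MACS2 peak calls, and deposited a table of summed coverage (signal: bases of reads over each peak) for 407383 peaks of 500 bases in 44 libraries, with a gene name and class for each peak. The deposited values are neither scaled nor read counts, and how the peaks were selected is not given in the sources used here. The study's count model was therefore not used.

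Coverage was divided by the library total and by a composition factor (trimmed mean of log ratios, 30% of ratios and 5% of means trimmed at each end), and log2(coverage per Mb + 0.5) was fitted with limma 3.58.1 in R 4.3.3 (lmFit, eBayes with a mean-variance trend) over all 44 libraries with group as the only term, so that 11 groups shared the estimate of the spread. Peaks with a mean log2 coverage per Mb of -3 or less were left out (207), and p-values were adjusted over the 407176 tested. A read was taken as 75 bases, and floors of 3 reads cover counting error only. The fit was tested on simulated data.

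Named were the 10 peaks of largest difference in each direction among called, non-overlapping peaks with a mean of at least 1 per Mb over the 8 libraries, 1 for each gene name; start-site peaks of listed genes that were called and of all receptor and kinase genes; all peaks listed under SOCS3 and OSMR; and the 10 names with the most called peaks in each direction, each with its peak of largest difference. Start sites came from GENCODE 44, and sequence from hg38, whose chromosomes contain all peaks. The members and lists were chosen with earlier results of these data known. Alternatives were library totals, median-of-ratios and loess offsets, a GC correction, pseudocounts of 0.1 and 2, other filters, only the 8 libraries, quality weights, a replicate block and leaving out single libraries. Shared replicate numbers did not pair the libraries: deviations of same-numbered OSM and IL22 libraries correlated at -0.0053 to 0.0191. Some items are not reported here.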

Additional observations from a re-analysis of the deposited data

Results flagged for a closer look

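Over the 65 peaks named or listed and 5 measures of the libraries, 7 of 140 groups of 4 libraries (5%) held a library whose gap to its nearest neighbour took up more of the range of the group than Dixon's 95% critical value, and chance alone gives about 1 in 20. At start sites, IL6ST stood at 40.1 per Mb in OSM replicate 3 (median of the other 3, 36.3), IL6R at 28.8 in IL22 replicate 3 (27.6), JAK2 at 27.9 in IL22 replicate 2 (35.1) and IL22RA2 at 0.13 in IL22 replicate 2 (the others at 0). Among called peaks, HORMAD2-AS1 had 1.22 in IL22 replicate 2 (0.396), and the SOCS3 peaks at chr17:78342327-78342826 and chr17:78357221-78357720 had 20.8 in OSM replicate 4 (18.4) and 13.4 in OSM replicate 1 (14.9). None of the called peaks among these had overlapping groups.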

How the results depend on the processing

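The number of called peaks (6772) rose to 12806, with 8864 higher, when only the 8 libraries entered the fit, and to 12889, with 7046 higher and 5843 lower, under quality weights. Those fits retained 6748 and 6770 of the 6772 peaks. The GC correction raised the higher peaks to 7271, lowered the lower peaks to 1534 and moved the share that was higher to 82.6%, sharing 5601 peaks. Leaving out single replicates gave 4591 to 5869 called peaks, 2666 (without OSM replicate 2) to 3518 higher. Library totals gave 6813, median-of-ratios 6736, loess 6966, pseudocounts of 0.1 and 2 6087 and 7391, no filter 6763, a mean of at least 1 per Mb 8532, and the spread without the library labelled IL6 replicate 4 8107. With the replicate number as a block, 6894 peaks were called and no named call was lost. All 51 named called peaks kept their direction where tested (that of NNMT was left out by the higher filter). Lost under some alternatives were the named peaks of ADAMTS5, CNTN4-AS1, FOS and TIMP3 and 2 of SOCS3. The causes were not tested. Levels below 0.411 per Mb with OSM and 0.555 with IL-22 lie under the mean floor of 3 reads.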
